A study of Rattus norvegicus with 7 samples.

Results

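Expression of Hif1a, the gene of the oxygen-regulated subunit of hypoxia-inducible factor 1 (HIF-1), and of 9 genes of its pathway was examined in cultured rat lenses made opaque with galactose and then given glutamate. The members were chosen by gene symbol: Hif1a itself, the oxygen sensors Egln1 and Egln3, and the HIF targets Vegfa, Adm, Ankrd37, Angptl4, P4ha1, Ndrg1 and Pdk1. They are 10 of the 18836 genes named on the array, and each is measured by 1 probe. Whole lenses of male Sprague Dawley rats, 6 weeks of age, were cultured in M199 medium with bovine serum albumin, and the RNA of each sample was hybridised to its own GeneChip Rat Gene 2.0 ST array. The Glutamate group (2 arrays) was kept in 30 mM galactose for 6 days, with 20 mM glutamate added for the final 3. The Galactose group (3 arrays) was kept in 30 mM galactose for 6 days without glutamate. The Control group (2 arrays) was cultured without galactose, 1 sample for 4 days (Control Day 4) and 1 for 6 days (Control Day 6), so that only 1 Control sample has the culture time of the other groups. No source used here says that arrays of a group came from separate animals, and p-values measure only the spread between these samples.

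Background on the pathway helps to order the genes. In cells with enough oxygen, prolyl hydroxylases of the EGLN family hydroxylate the HIF alpha subunit, which is then bound by the von Hippel-Lindau protein and degraded. When oxygen is short the alpha subunit is stable, pairs with ARNT and binds short DNA elements near genes of glucose use, vessel growth and matrix formation. This control acts on the protein, so the level of the Hif1a transcript is not a measure of HIF activity, and the transcripts of target genes are the usual readout. EGLN1 and EGLN3 are themselves HIF targets in human cells and limit the response. The lens has no vessels and lies in fluid of low oxygen tension, and its fibre cells rely mainly on glycolysis.

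The values are log2 signals normalized by the authors over all arrays, so that a difference of 1 is a 2-fold change. Of the 5320 probes with a gene name and a signal above 5 on at least 1 array, the filter used here, 8 were members. Egln3 and Adm stayed below 5 on every array and were tested in a fit without the filter. A gene counts as changed where its limma p, adjusted over all probes tested by the Benjamini-Hochberg method, is under 0.05. Lens fibre markers were above 5 on all 7 arrays for 9 of 9 genes, as were 5 of 9 lens epithelial markers. By contrast, 0 of 5 vessel markers (Cdh5, Tek, Vwf, Cldn5 and Emcn) and 0 of 7 retinal markers were above 5 on any array. Of 8 leukocyte markers, 1 (Cd68) was. No erythrocyte gene was among the markers read, so blood cells were not checked. The 5320 probes had a median signal of 5.66 and 5.55 on the Glutamate arrays and 5.68 to 5.76 on the Galactose arrays. It was 5.77 on Control Day 4 and 5.37 on Control Day 6, so in these probes Control Day 6 stood apart before any gene was looked at. Over all 36685 probes its median was instead the highest, 2.94 against 2.79 to 2.88 on the other arrays, so it was not dimmer throughout. In whole lenses, fewer cells of a type and less RNA per cell cannot be told apart.

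The members did not move as a block, and 0 of 10 changed in any of the 3 comparisons. For Galactose against Control, 0.0940% of the 5320 probes changed, and for Glutamate against Galactose and Glutamate against Control 0% did. Before adjustment, 2 of 10 members had p under 0.05 in Galactose against Control, both lower (Vegfa and Ndrg1), beside 5.23% of all probes, and 0 of 10 were higher at that threshold, beside 11.8% of all probes. In Glutamate against Galactose 0 of 10 members had p under 0.05 in either direction, beside 1.13% of probes higher and 4.40% lower. In Glutamate against Control it was again 0 of 10, beside 6.62% of probes in either direction. In Galactose against Control the median log2 fold change of the 10 members was 0.10 and that of all tested probes 0.17. In Glutamate against Galactose the medians were -0.18 for the members and -0.11 for all tested probes.

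**Figure D1:**
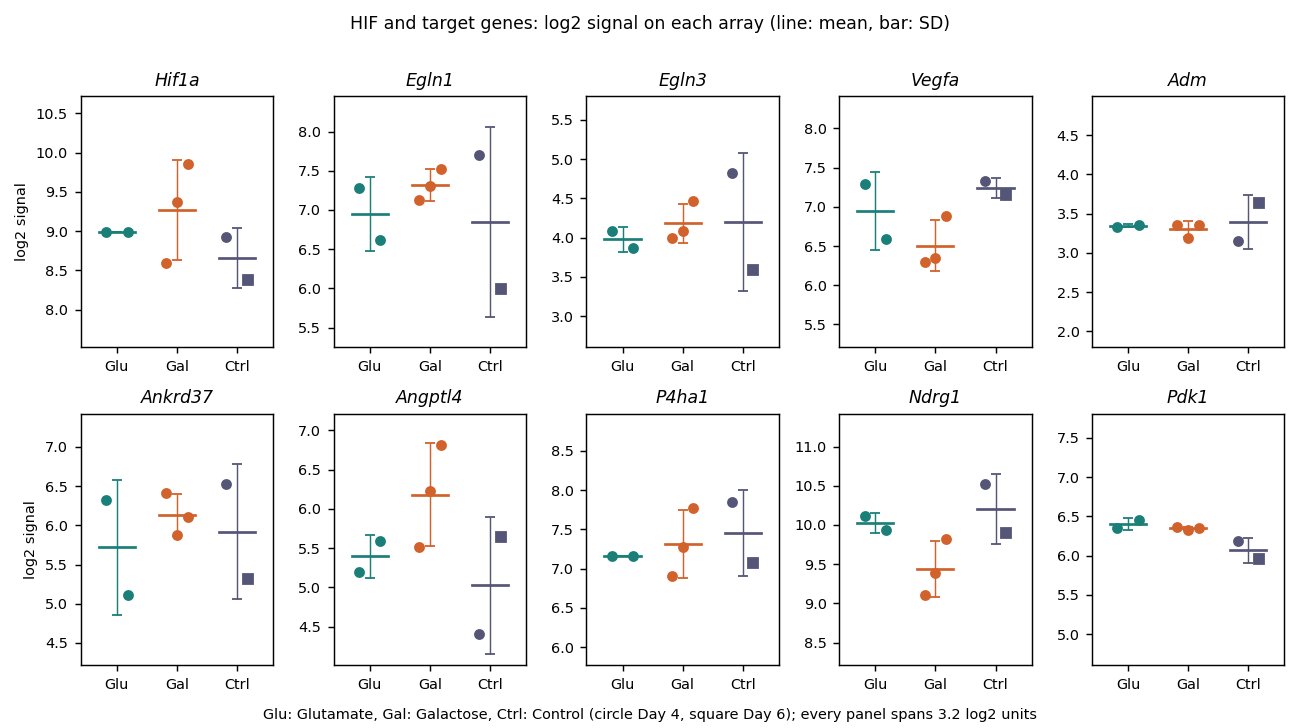
Log2 signal (vertical axis) of the 10 members on each array, with Glutamate (2 arrays), Galactose (3 arrays) and Control (circle for Day 4, square for Day 6) from left to right in every panel. Horizontal lines are group means and bars are the SD; the Galactose arrays of Vegfa and Ndrg1 lie below both Control arrays, and Angptl4 has its 2 highest values, 6.22 and 6.81, on Galactose arrays.

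Hif1a had a log2 signal of 8.99 on both Glutamate arrays, against 8.59, 9.37 and 9.85 on the Galactose arrays and 8.92 and 8.38 on Control Day 4 and Control Day 6. In Galactose the arrays spanned 1.26 log2 units and enclosed both Glutamate arrays and Control Day 4. The values of both Glutamate arrays were identical in the deposited table, a feature that 37.8% of the tested probes share on at least 2 arrays. For Galactose against Control the log2 fold change was 0.62 (standard error 0.38, limma adjusted p = 0.397). For Glutamate against Galactose it was -0.28 (standard error 0.38, adjusted p = 0.960). After a further quantile normalization these 2 values were 0.22 and -0.0035. Both Glutamate arrays lay above both Control arrays, with a log2 fold change of 0.34 and an adjusted p of 0.831.

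Egln1, the main oxygen sensor of the family, was at 7.28 and 6.62 in Glutamate, 7.13, 7.30 and 7.53 in Galactose, and 7.71 and 5.99 in Control Day 4 and Control Day 6. The highest and the lowest of the 7 values were both Control arrays, and the groups overlapped in every comparison. Galactose was higher than Control by 0.47 (standard error 0.50, adjusted p = 0.604). This value rested on which Control array was used. Without Control Day 4, Egln1 was 1.33 log2 units higher in Galactose and passed the test (limma adjusted p = 0.0272), in a fit with 1 Control array in which 1717 of 5320 probes (32.3%) did so. Without Control Day 6 it was lower in Galactose, with a log2 fold change of -0.39.

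Egln3, a sensor that is strongly induced by hypoxia in many cell types, had low signals of 4.09 and 3.87 in Glutamate, 4.00, 4.09 and 4.47 in Galactose, and 4.82 and 3.58 in Control Day 4 and Control Day 6. As for Egln1, Control Day 4 was the highest array and Control Day 6 the lowest. The log2 fold change was -0.02 for Galactose against Control and -0.21 for Glutamate against Galactose, with a standard error of 0.37 for each.

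Vegfa, the gene of the main growth factor of vessels, had signals of 7.30 and 6.59 in Glutamate, 6.29, 6.35 and 6.88 in Galactose, and 7.32 and 7.15 in Control. Its 3 Galactose arrays were below both Control arrays, and the 2 Glutamate arrays lay on either side of the highest Galactose array. The means were 6.94 ± 0.50 in Glutamate (SD, n = 2), 6.51 ± 0.33 in Galactose (n = 3) and 7.24 ± 0.12 in Control (n = 2). Galactose against Control gave a log2 fold change of -0.73 (standard error 0.30), which had an unadjusted limma p of 0.0450 and an adjusted p of 0.287. Glutamate against Galactose gave 0.44 (standard error 0.30, adjusted p = 0.916), a value that was 0.085 without Glutamate 1 and 0.79 without Glutamate 2.

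Ndrg1, a differentiation-associated gene that is widely induced in hypoxic cells, had the same ordering of group means. Its signals were 10.11 and 9.94 in Glutamate, 9.11, 9.39 and 9.82 in Galactose, and 10.52 and 9.89 in Control Day 4 and Control Day 6. Every Galactose array lay below every other array. The means were 10.03 ± 0.12 in Glutamate (SD, n = 2), 9.44 ± 0.36 in Galactose (n = 3) and 10.21 ± 0.44 in Control (n = 2). The log2 fold change for Galactose against Control was -0.77 (standard error 0.29), with an unadjusted limma p of 0.0360 and an adjusted p of 0.272. It was -0.45 without Control Day 4 and -1.34 after a further quantile normalization (limma adjusted p = 0.0705). For Glutamate against Galactose it was 0.59 (standard error 0.29, adjusted p = 0.908), and Ndrg1 was the 1 member whose Glutamate and Galactose arrays did not overlap.

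Some cell markers were ordered like Vegfa and Ndrg1, with a Galactose mean below both other means, and others were not. How many of all tested probes have this order was not counted, so the counts below are only descriptions of the lists. Of the 9 lens fibre markers, 5 had this order (Cryba1, Mip, Bfsp1, Gja3 and Lgsn). It was slight for Cryba1, with means of 13.14 in Glutamate, 13.12 in Galactose and 13.13 in Control. The log2 of the summed signal of the fibre list was 15.15 on both Glutamate arrays and 15.03 to 15.06 in Galactose. It was 15.16 on Control Day 4 and 15.05 on Control Day 6. Of the 7 lens epithelial markers above 5 on any array, 1 had this order (Foxe3). The log2 of the summed signal of the 9 epithelial markers was 12.38 and 12.12 in Glutamate, 11.54, 12.48 and 12.51 in Galactose, and 12.59 and 11.69 in Control Day 4 and Control Day 6, with overlap of all groups. Foxe3, a transcription factor of lens epithelium that was singled out after its values were seen, had signals of 5.85 and 6.05 in Glutamate, 4.06, 4.89 and 4.89 in Galactose, and 6.88 and 6.25 in Control. Of 9 genes listed as fibroblast and smooth muscle markers, 2 (Pdgfra and Des) were above 5 on any array, and both had this order. Col1a1, Col3a1, Dcn and Lum stayed below 5. The log2 of the summed signal of that list was 7.56 and 6.74 in Glutamate, 6.48 to 6.72 in Galactose and 8.08 and 7.62 in Control. Of 9 genes listed as markers of ciliary body, iris and pigment cells, 2 (Mitf and Aqp1) were above 5 on any array, and both had this order. The means of Mitf differed little, 5.06 in Glutamate, 4.90 in Galactose and 5.03 in Control. The summed log2 signal was 6.999 and 6.87 in Glutamate, 6.61 to 6.79 in Galactose and 7.78 and 8.67 in Control. Aqp1 alone was at 7.17 and 8.34 in Control, while Tyr, Tyrp1, Dct and Mlana stayed below 5 on every array. With most genes of the last 2 lists below 5, their sums rest on few genes and do not show that such cells were present. Whether the signals of Pdgfra, Des, Mitf and Aqp1 came from such cells or from lens cells was not tested. Nor was the part of any cell type in the Vegfa and Ndrg1 values.

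Angptl4, a secreted inhibitor of lipoprotein lipase and a HIF target, had signals of 5.20 and 5.59 in Glutamate, 5.51, 6.22 and 6.81 in Galactose, and 4.41 and 5.64 in Control Day 4 and Control Day 6. Its highest 2 values were Galactose arrays, but Galactose 1 lay below Control Day 6 and below Glutamate 2. The means were 5.39 ± 0.27 in Glutamate (SD, n = 2), 6.18 ± 0.65 in Galactose (n = 3) and 5.03 ± 0.87 in Control (n = 2). Galactose was higher than Control by 1.15 log2 units (2.23-fold, standard error 0.49), with an unadjusted limma p of 0.0512 and an adjusted p of 0.294. This difference was 0.54 without Control Day 4 and 1.77 without Control Day 6. Glutamate was lower than Galactose, with a log2 fold change of -0.79 (standard error 0.49, adjusted p = 0.914). Angptl4 was the 1 of 10 members that met a fold rule applied to group means, at least 2-fold higher in Galactose than in Control and at least 1.5-fold lower in Glutamate than in Galactose. Of all tested probes, 4.77% met this rule. Its own drop was 1.73-fold, and it no longer met the rule after leaving out Control Day 4 or Galactose 3 or after a further quantile normalization.

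Pdk1, the gene of a pyruvate dehydrogenase kinase, had closely grouped signals of 6.35 and 6.46 in Glutamate, 6.36, 6.33 and 6.35 in Galactose, and 6.18 and 5.95 in Control. All Galactose and Glutamate arrays lay above both Control arrays. The log2 fold changes were small, 0.28 for Galactose against Control (standard error 0.18, adjusted p = 0.412) and 0.34 for Glutamate against Control (standard error 0.20, adjusted p = 0.750). For Glutamate against Galactose the log2 fold change was 0.06. After a further quantile normalization the value for Galactose against Control was 0.092 and that for Glutamate against Control 0.29.

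P4ha1, a catalytic subunit of the prolyl hydroxylase of collagen, was at 7.17 on both Glutamate arrays, 6.90, 7.27 and 7.77 in Galactose, and 7.85 and 7.07 in Control Day 4 and Control Day 6. Ankrd37, an ankyrin repeat gene induced by HIF-1 in human cells, was at 6.33 and 5.11 in Glutamate, 6.41, 5.87 and 6.10 in Galactose, and 6.53 and 5.31 in Control Day 4 and Control Day 6. For both genes the arrays of all 3 groups overlapped. The 2 Glutamate arrays of Ankrd37 differed by 1.22 log2 units, as much as its 2 Control arrays. For Galactose against Control the log2 fold changes were -0.14 for P4ha1 and 0.21 for Ankrd37, and both changed sign when 1 Control array was left out (Control Day 4 for P4ha1, with 0.24, and Control Day 6 for Ankrd37, with -0.40). Adm, the gene of the vasodilator peptide adrenomedullin, had low signals of 3.33 and 3.36 in Glutamate, 3.36, 3.19 and 3.36 in Galactose, and 3.15 and 3.64 in Control Day 4 and Control Day 6.

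**Figure D2:**
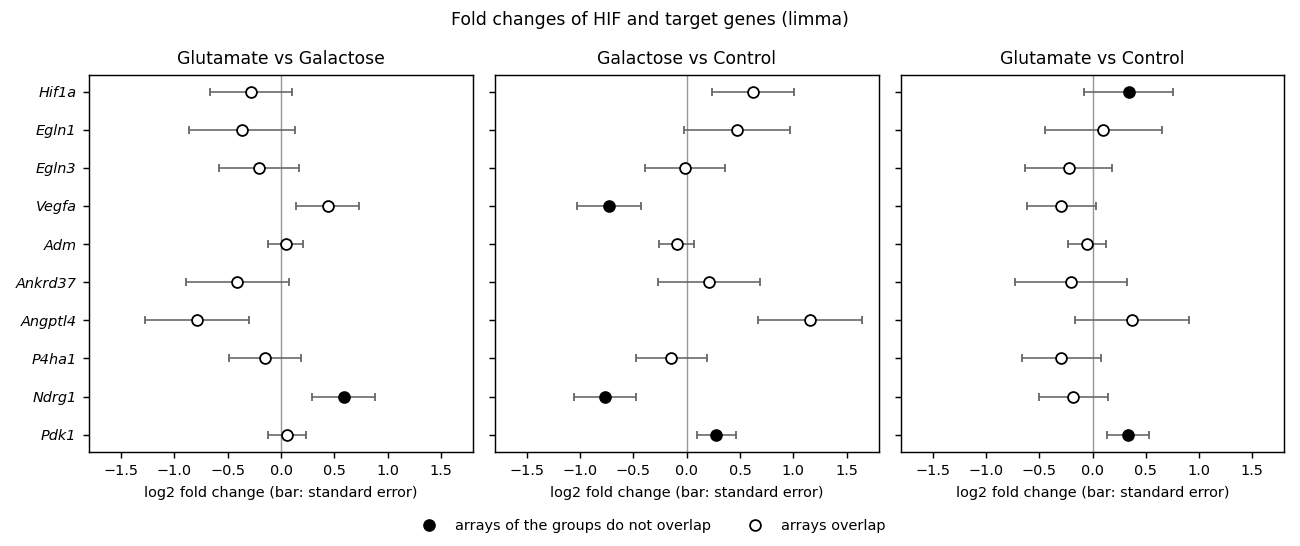
Log2 fold change (horizontal axis) with its standard error for the 10 members in Glutamate against Galactose, Galactose against Control and Glutamate against Control, with filled points where no array of one group lies within the range of the other. Filled points below 0 are Vegfa (-0.73) and Ndrg1 (-0.77) in Galactose against Control, and 0 of 10 members changed in any panel.

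Counted over all 10 members, the arrays of Galactose and Control did not overlap for 1 higher gene (Pdk1) and 2 lower genes (Vegfa and Ndrg1). The same held for 21.5% of all tested probes upward and 12.1% downward. Between Glutamate and Galactose 1 member was higher without overlap (Ndrg1) and 0 were lower, beside 7.76% and 21.7% of tested probes. Between Glutamate and Control 2 members were higher without overlap (Hif1a and Pdk1) and 0 were lower, beside 13.3% and 15.0% of tested probes. With 2 or 3 arrays in a group such separation was common over the table, and these counts are not read as a result about the members.

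For several members the arrays of 1 group differed by more than the group means did. Control Day 6 was lower than Control Day 4 for 8 of 10 members, beside 70.5% of tested probes, and the steps were -1.71 for Egln1, -1.24 for Egln3 and -1.22 for Ankrd37. The exceptions were Angptl4, which was 1.23 higher on Control Day 6, and Adm, which was 0.49 higher. Day of culture and sample cannot be told apart here, since each day is 1 array. Among the Galactose arrays, Galactose 3 was above Galactose 1 for 7 of 10 members, beside 64.8% of tested probes. The largest of these steps were 1.30 for Angptl4, 1.26 for Hif1a and 0.87 for P4ha1. Glutamate 2 was below Glutamate 1 for 6 of 10 members, beside 59.0% of tested probes.

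**Figure D3:**
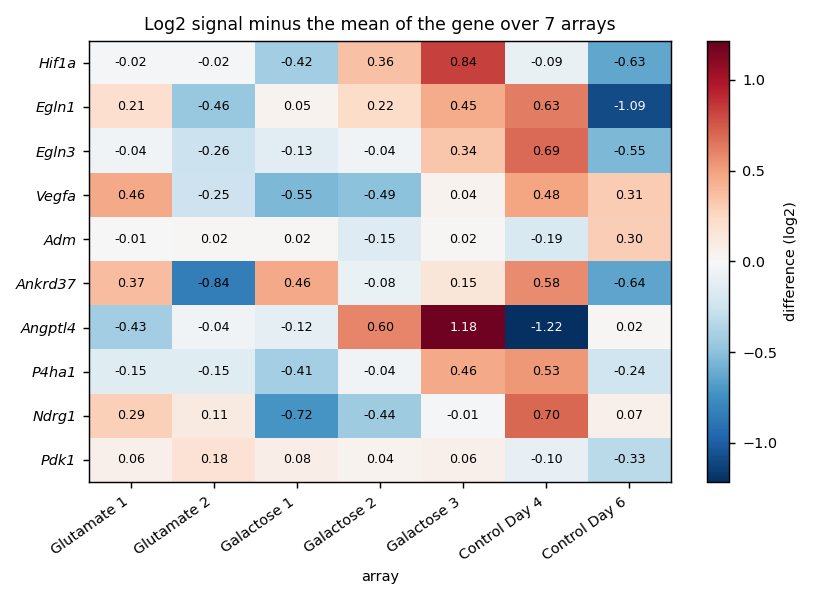
Difference of each array's log2 signal from the mean of the gene over the 7 arrays (colour and printed value), with the members in rows and the arrays in columns, Glutamate at left, Galactose in the middle and Control at right. Galactose 3 holds the largest positive value (1.18, Angptl4), and the 2 Control columns differ in sign for 6 of 10 members.

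The promoter sequences were searched for the core of the HIF binding element to see which members carry it close to their start. The 250 bases before the start of a gene in RefSeq (build GRCr8) were read on both strands for ACGTG or GCGTG, which appear as CACGT or CACGC on the strand printed when they lie on the other one. The palindrome CACGTG, which is also the E-box of other factors, holds the first motif on both strands and was counted as 1 place. A match was found for 6 of the 9 members with an entry (Hif1a, Egln1, Ankrd37, Angptl4, P4ha1 and Pdk1), and 36.7% of all 33469 windows of this length hold one. The windows of Egln3, Vegfa and Adm held none, and no entry was used for Ndrg1. The Vegfa entry has 2 windows, and the element described for the human gene lies farther upstream than such a window reaches. Matches are descriptions of the letters and were not tested for binding. Printed here, 5′ to 3′ on the gene's own strand with the motifs in capitals, are Angptl4, the member that met the fold rule (chr7:15258682-15258931, minus strand), Ankrd37, with the most places (chr16:53001257-53001506, plus strand), and Pdk1, whose Galactose and Glutamate arrays all lay above Control (chr3:77113264-77113513, plus strand).
Angptl4: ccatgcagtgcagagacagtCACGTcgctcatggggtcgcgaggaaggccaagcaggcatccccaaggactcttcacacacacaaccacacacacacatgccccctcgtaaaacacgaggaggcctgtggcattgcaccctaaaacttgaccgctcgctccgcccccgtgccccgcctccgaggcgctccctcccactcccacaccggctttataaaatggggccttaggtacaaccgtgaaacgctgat
Ankrd37: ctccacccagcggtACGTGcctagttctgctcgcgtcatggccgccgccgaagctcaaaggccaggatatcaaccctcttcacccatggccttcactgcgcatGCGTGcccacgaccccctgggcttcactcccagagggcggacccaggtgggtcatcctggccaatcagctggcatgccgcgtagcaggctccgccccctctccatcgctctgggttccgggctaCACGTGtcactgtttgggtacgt
Pdk1: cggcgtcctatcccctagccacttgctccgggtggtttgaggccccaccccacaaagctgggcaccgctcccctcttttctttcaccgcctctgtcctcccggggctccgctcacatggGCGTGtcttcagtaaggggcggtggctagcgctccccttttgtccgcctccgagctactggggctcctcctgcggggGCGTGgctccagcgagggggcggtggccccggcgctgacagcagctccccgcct
The single place of Angptl4 begins 230 bases before the start and is CACGT as printed, the motif of the other strand. Ankrd37 has 3 places, 236, 147 and 23 bases before the start, the last of them a CACGTG. Pdk1 has 2 places, both GCGTG, at 131 and 54 bases. Any relation between these places and the fold changes was not tested.

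Beyond the members, 96 other genes of 6 lists of the hypoxia pathway have a probe, and 62 of them passed the filter. In every comparison 0 of 62 changed (limma). Before adjustment, in Galactose against Control 10 of 62 had p under 0.05 and were higher, beside 11.8% of all tested probes, and 1 was lower, beside 5.23%. In Glutamate against Galactose 1 was higher and 6 were lower at that threshold, beside 1.13% and 4.40% of all tested probes. These counts include genes that passed the filter only through Galactose arrays, among them Gys1, Pfkp, Nfil3 and Ccng2. For such genes the filter drew on the values compared. The medians of the lists include them too. The median log2 fold change of the 62 genes was 0.30 in Galactose against Control and -0.21 in Glutamate against Galactose, beside 0.17 and -0.11 for all tested probes. When the named probes were quantile normalized once more, this moved the medians of all tested probes to 0.00 and 0.01 and those of the 62 genes to 0.14 and -0.05, so the medians of these lists moved with that of the whole table. Without Control Day 4, where the single Control array is assumed to vary like the other groups, 15 of the 62 genes changed in Galactose against Control, beside 32.3% of all tested probes, and 6 in Glutamate against Control, beside 16.5%.

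Among 9 tested genes of the oxygen sensing machinery, 2 had p under 0.05 in Glutamate against Galactose, both lower, beside 4.40% of all tested probes. Vhl, the recognition subunit of the ligase that marks HIF alpha for degradation, was at 5.22 and 5.29 in Glutamate, 5.82, 5.98 and 5.54 in Galactose, and 5.47 and 5.18 in Control. Its log2 fold change for Glutamate against Galactose was -0.53 (standard error 0.21, adjusted p = 0.870). Cited2, which competes with HIF for the coactivators CBP and p300, was at 5.84 and 5.16 in Glutamate, 6.19, 6.51 and 6.30 in Galactose, and 6.18 and 5.86 in Control, with -0.84 for Glutamate against Galactose (standard error 0.26, adjusted p = 0.795). For both genes every Galactose array lay above both Glutamate arrays. The other alpha subunits Epas1 and Hif3a were below 5 on every array, as were Egln2 and Hif1an, the asparagine hydroxylase of HIF.

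Of 17 tested genes of glucose and pyruvate use, the Galactose mean was above the Control mean for 14, beside 61.9% of all tested probes. The 14 include Gys1, Pfkp and Slc2a3, which exceeded 5 only on Galactose 3. For these genes the filter favoured this direction, so the count and the median of the list are not read as a result. Of the 17, 4 were higher with p under 0.05, beside 11.8% of all tested probes, and the median log2 fold change was 0.44. Gpi, the glycolytic isomerase, was at 9.10 and 8.94 in Glutamate, 9.03, 9.95 and 10.05 in Galactose, and 9.12 and 7.65 in Control Day 4 and Control Day 6, a log2 fold change of 1.29 for Galactose against Control (standard error 0.49, adjusted p = 0.272) that came with overlap of the arrays. Pgk1, the phosphoglycerate kinase, was 0.87 higher in Galactose (standard error 0.36, adjusted p = 0.290), and its 3 Galactose arrays, 9.16 to 9.54, lay above 9.02 and 7.85 in Control. Gys1, a glycogen synthase, was 0.78 higher in Galactose (standard error 0.26, adjusted p = 0.232). It exceeded 5 only on Galactose 3 (5.01) and passed the filter through that array. Pgm1, a phosphoglucomutase, was 0.74 higher in Galactose (standard error 0.30, adjusted p = 0.291). Control Day 6 was the lowest of the 7 arrays for Gpi, Pgk1, Gys1 and Pgm1. Pfkp, a phosphofructokinase, had the lowest p of this list in Glutamate against Galactose, with a log2 fold change of -0.82 (standard error 0.32, adjusted p = 0.853). It too exceeded 5 only on Galactose 3 (5.05).

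Most genes of the vessel and secreted list were dim, and 3 of 14 were tested. Anxa2, a membrane-binding annexin, was at 8.23 and 8.43 in Glutamate, 8.58, 9.10 and 9.40 in Galactose, and 8.05 and 7.29 in Control, with a log2 fold change of 1.36 for Galactose against Control (standard error 0.33, adjusted p = 0.152) and no overlap between any 2 groups. Tgfb3, a growth factor of the TGF-beta family, was at 5.59 and 6.90 in Glutamate, 5.10, 4.97 and 4.83 in Galactose, and 4.12 and 5.14 in Control. It was the 1 gene of the lists with p under 0.05 that was higher in Glutamate than in Galactose, by 1.27 log2 units (standard error 0.45, adjusted p = 0.853). In the matrix list, P4hb, the partner of P4ha1 in the collagen prolyl hydroxylase and a protein disulphide isomerase of the endoplasmic reticulum, was at 6.94 and 7.50 in Glutamate, 7.70, 8.19 and 8.23 in Galactose, and 7.02 and 6.78 in Control. It was 1.14 higher in Galactose than in Control (standard error 0.27, adjusted p = 0.149), whereas P4ha1 had a log2 fold change of -0.14.

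Of 22 tested genes of survival, mitophagy, growth and signalling, the Glutamate mean was below the Galactose mean for 20, beside 64.5% of all tested probes. The median log2 fold change was -0.27. The 20 include Ccng2, Nfil3, Higd1a and Errfi1, which exceeded 5 only on Galactose arrays. For these genes the filter favoured this direction, so the count and the median are not read as a result. Ccng2, an unconventional cyclin, was at 4.28 and 3.90 in Glutamate, 5.16, 5.08 and 5.68 in Galactose, and 4.58 and 4.06 in Control. Glutamate against Galactose gave -1.22 (standard error 0.28, limma adjusted p = 0.606), and Galactose against Control gave 0.99 (standard error 0.28, adjusted p = 0.185). Bhlhe40, a repressor of transcription, had -1.13 for Glutamate against Galactose (standard error 0.42, adjusted p = 0.853), with every Glutamate array below every Galactose array. Nfil3, a basic leucine zipper factor, was 0.96 higher in Galactose than in Control (standard error 0.26, adjusted p = 0.174). Nfil3 exceeded 5 only on Galactose 1 (5.25) and Ccng2 only on the Galactose arrays, so both passed the filter only through that group. Fam162a, a mitochondrial protein, had the highest log2 fold change of this list in Galactose against Control, 1.44 (standard error 0.64, adjusted p = 0.305), and that value rested on Control Day 6, at 5.14, since Control Day 4 was at 7.59 and the Galactose arrays at 7.76 to 7.89. Plin2, which coats lipid droplets, had a log2 fold change of -1.20 for Glutamate against Control (standard error 0.42, adjusted p = 0.723).

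In the list of iron, haem and pH, 5 of 7 genes were tested. Fech, the last enzyme of haem synthesis, was 0.73 higher in Galactose than in Control (standard error 0.25, adjusted p = 0.240). Hmox1, which breaks haem down and also answers oxidative stress, was at 9.88 and 10.49 in Glutamate, 10.49, 10.98 and 11.17 in Galactose, and 9.84 and 10.42 in Control, with a log2 fold change of 0.75 for Galactose against Control (standard error 0.32, adjusted p = 0.297). Car9, a carbonic anhydrase that is a common marker of hypoxic cells, had the lowest value of this list in Galactose against Control, -0.90 (standard error 0.54, adjusted p = 0.384), and its arrays overlapped.

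**Figure D4:**
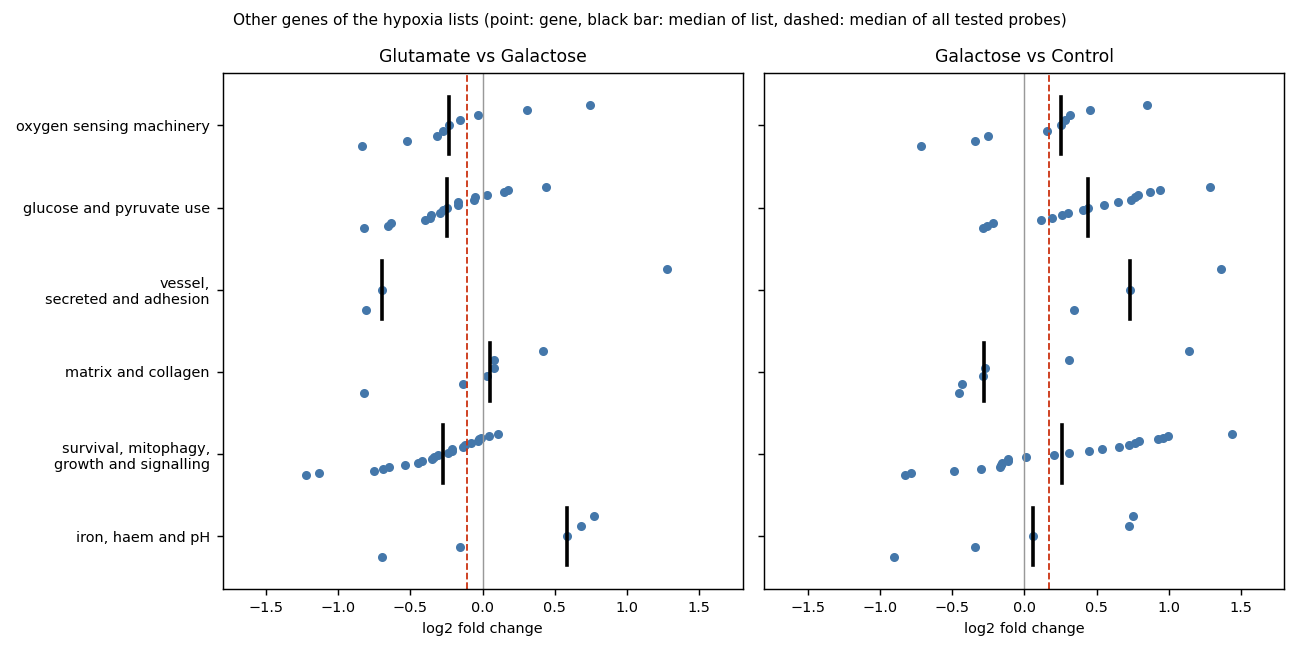
Log2 fold change (horizontal axis) of the 62 tested genes of 6 hypoxia lists outside the members, by list, for Glutamate against Galactose and Galactose against Control. Points are genes, spread vertically only to part them, and black bars are list medians. The dashed line is the median of all 5320 probes, at -0.11 and 0.17. The bar of glucose and pyruvate use lies at 0.44 in Galactose against Control. Some genes, among them Gys1, Pfkp and Slc2a3 of that list, passed the filter only through Galactose arrays.

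Over the 7 arrays, the genes whose signals ran most like Hif1a among 5030 compared were Dhdds (Pearson r = 0.98), Fkbp9 (0.97) and Rbm26 (0.96), all highest on Galactose 3 and lowest on Control Day 6. The genes most like Vegfa were Clic5 (0.98), Sfrp1 (0.97) and Zfhx4 (0.97), each highest on Glutamate 1. These are the top values of a large search over 7 arrays that share their normalization, given as a description.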

How the data were processed

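The deposited table gives a log2 signal for each probe, which the authors obtained by Robust Multi-array Average normalization of the 7 arrays as a set. Of 36685 probes, the platform annotation names a gene for 19086 (several genes for 575), and 5320 of these exceeded a signal of 5 on at least 1 array. Comparisons used limma 3.58.1 (R 4.3.3) with all 7 arrays and a mean for each group, which leaves 4 residual degrees of freedom, and p-values were adjusted over the probes tested by the Benjamini-Hochberg method at a threshold of 0.05. The script was tested on simulated data. The members and gene lists were chosen with earlier results of these data known. All members are described; other genes of a list were named by the smallest unadjusted p or the largest rise or fall. Alternatives were other filters, a second quantile normalization, median centring, array weights, an intensity trend, 1 probe per gene, the 2 groups only, a replicate block, and leaving out each array. Promoters were searched in Python 3.11.15. The number of arrays limits the precision.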

Additional observations from a re-analysis of the deposited data

How the results depend on the processing

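Of 460 values of the members under other settings, 432 kept their direction and their side of the threshold, 27 changed sign and 1 passed the threshold (Egln1 without Control Day 4). The number of probes changed in Galactose against Control, 5 in the main analysis, was 0 with no filter on low values, 20 after a second quantile normalization, 11 with each array centred on its median, 0 with array weights and 1 with the arrays of the 2 groups only. It was 1 in Glutamate against Control after the quantile normalization and 1 in Glutamate against Galactose with array weights, both 0 in the main analysis. The quantile normalization also took the members that met the fold rule to 0 and turned P4ha1 in Glutamate against Galactose to 0.045. In Galactose against Control the same normalization moved Hif1a to 0.22, Pdk1 to 0.092, Angptl4 to 0.93, Vegfa to -1.01 and Ndrg1 to -1.34. Array weights turned Egln3 in Galactose against Control to 0.0049. The cause was not tested. Each member has 1 probe, so averaging probes could not give another value.

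Leaving out each array in turn gave 0 to 1717 changed probes in Galactose against Control and 0 to 880 in Glutamate against Control, the higher count without Control Day 4 in each case, when the remaining Control array is assumed to vary like the other groups. Changed members in Galactose against Control ran from 0 to 1, changed genes of the hypoxia lists from 0 to 15, and from 0 to 6 in Glutamate against Control, and members that met the fold rule from 0 to 1. In Galactose against Control the log2 fold change ran from -0.39 to 1.33 for Egln1, -0.63 to 0.60 for Egln3, -0.34 to 0.15 for Adm, -0.40 to 0.82 for Ankrd37 and -0.53 to 0.24 for P4ha1. In Glutamate against Galactose it ran from -0.62 to 0.010 for Hif1a, -0.013 to 0.074 for Adm, -1.02 to 0.20 for Ankrd37, -0.36 to 0.082 for P4ha1 and -7.253e-06 to 0.11 for Pdk1. In Glutamate against Control it ran from -0.75 to 0.96 for Egln1, -0.84 to 0.40 for Egln3, -0.64 to 0.061 for Vegfa, -0.29 to 0.20 for Adm, -0.81 to 0.41 for Ankrd37, -0.25 to 0.98 for Angptl4, -0.68 to 0.095 for P4ha1 and -0.50 to 0.13 for Ndrg1. Without a change of sign, leaving out 1 array moved Hif1a over 0.33 to 0.96, Angptl4 over 0.54 to 1.77 and Ndrg1 over -1.08 to -0.45 in Galactose against Control, and Vegfa over 0.085 to 0.79 and Angptl4 over -1.12 to -0.47 in Glutamate against Galactose.

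No source used here says whether replicates 1 and 2 of Galactose and Glutamate are paired by their number. The deviations of same-numbered arrays correlated at -0.03 and 0.06. With 2 Glutamate arrays their deviations are mirror images, so these values cannot decide it. The fit with the replicate number as a block holds those 4 arrays and so leaves out Galactose 3. In it 0 probes changed in Glutamate against Galactose, as without the block, and Hif1a and P4ha1 were at 0.010 and 0.082, the values they have without Galactose 3 and no block. The number of arrays, 2 or 3 per group, limits the precision.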
